A study of Mus musculus with 7 samples.

Results

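A set of 10 genes of purinergic signalling was followed across the 7 libraries: P2ry12, P2ry13, P2ry6, P2ry2 and P2ry14, which encode G protein-coupled receptors for nucleotides, P2rx4 and P2rx7, which encode ATP-gated ion channels, Entpd1 and Nt5e, which encode cell-surface enzymes that remove phosphates from nucleotides, and Adora3, which encodes an adenosine receptor. They were taken from the files by gene symbol and make up 10 of the 50686 genes listed in each library. Each of the 10 passed the filter on low counts (at least 1 library had to hold over 10 expected counts) and are among the 17559 autosomal genes tested.

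ATP and ADP leave damaged cells and act on nearby cells as signals. P2X receptors are channels opened by ATP, whereas P2Y receptors couple to G proteins and respond to ADP, UDP, ATP, UTP or UDP-sugars, depending on the receptor. CD39, encoded by Entpd1, converts ATP and ADP to AMP, and CD73, encoded by Nt5e, converts AMP to adenosine, which acts on its own receptors. In microglia, the resident macrophages of the brain, P2Y12 directs processes towards sites of ATP release, P2Y6 is linked to phagocytosis, P2X4 to responses after nerve injury and P2X7 to release of interleukin-1 beta.

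The libraries came from brain microglia of male C57BL/6 mice, taken 4 days after transient occlusion of the middle cerebral artery, a stroke model. The mice were otherwise untreated, without a drug apart from the anesthetic and analgesic of the surgery. The young group held 4 mice of 3 to 4 months (14C, 18C, 23C and 29C) and the old group 3 mice of 21 to 22 months (2posI, 3posI and 4posI), with 1 library per mouse. In both ages, cells were sorted from the dissociated forebrain by CD11b and CD45 and by staining with Bodipy, a dye of neutral lipids, so the libraries describe lipid droplet-containing cells and hold neither Bodipy-negative cells nor mice without ischemia. The comparison of the ages asks how these cells differ between old and young mice after stroke.

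The expected counts (reads assigned to a gene by the RSEM program) summed to between 36574083 and 53002386 per library, of which the 10 genes held 0.128% to 0.347%. Ribosomal RNA genes, with those of mitochondria, held 4.14% to 4.99% in the young libraries and 2.21% to 3.37% in the old, without overlap. The part of this difference in the comparison of the ages was not tested. All 9 microglia markers reported, among them Tmem119 and Sall1, were detected in every library, and none of them was at 0. Their summed level in TPM (the transcript level from RSEM, corrected for gene length and library size) lay between 8898 and 13750 in the young libraries and at 9584 and 10600 in old 2posI and 4posI, against 4835 in old 3posI. In 3posI the 8 monocyte markers summed to 2419 TPM, compared with 80.0 to 211 in the young and 240.5 and 200.5 in the other 2 old libraries, and all 8 were detected in it. The 8 markers of border-associated macrophages summed to 1775 TPM in 3posI and to between 160 and 546.5 elsewhere. Nearly all of the 3posI sum came from Pf4 (775 TPM), Ms4a7 (598 TPM), Cbr2 (191.5 TPM) and F13a1 (166 TPM). Mrc1, Cd163 and Lyve1, at 19.4, 7.61 and 7.30 TPM in 3posI, lay near young 14C (15.5, 7.88 and 6.76 TPM), and Clec10a was at 10.2 against 6.37 TPM. Because 3posI stands apart in these sums, the log2 fold change of each of the 10 genes is given with and without it. So are those of named pathway genes that it moved by over 1.5 times. Its part in these values was not tested. In bulk libraries, fewer cells of a type and less RNA per cell cannot be told apart.

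None of the 10 genes differed between old and young mice by edgeR's quasi-likelihood test (adjusted p under 0.05, Benjamini-Hochberg over all genes tested), and none had an unadjusted p under 0.05 in edgeR, limma-voom or DESeq2. Over all genes tested, 0.803% passed (141 genes), 0.57% higher and 0.233% lower in old mice. Fitted log2 fold changes (old minus young) were positive for 5 genes and negative for 5, with a median of -0.02, beside a median of -0.014 over all genes tested. In none of the 10 genes were the old libraries separated from the young without overlap. Of all genes tested, 17.7% were separated, and 9.07% of all genes tested were separated and lower in old mice. For 7 of the 10 genes the same 2 libraries, young 23C and old 3posI, lay together at one end of the range.

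**Figure D1:**
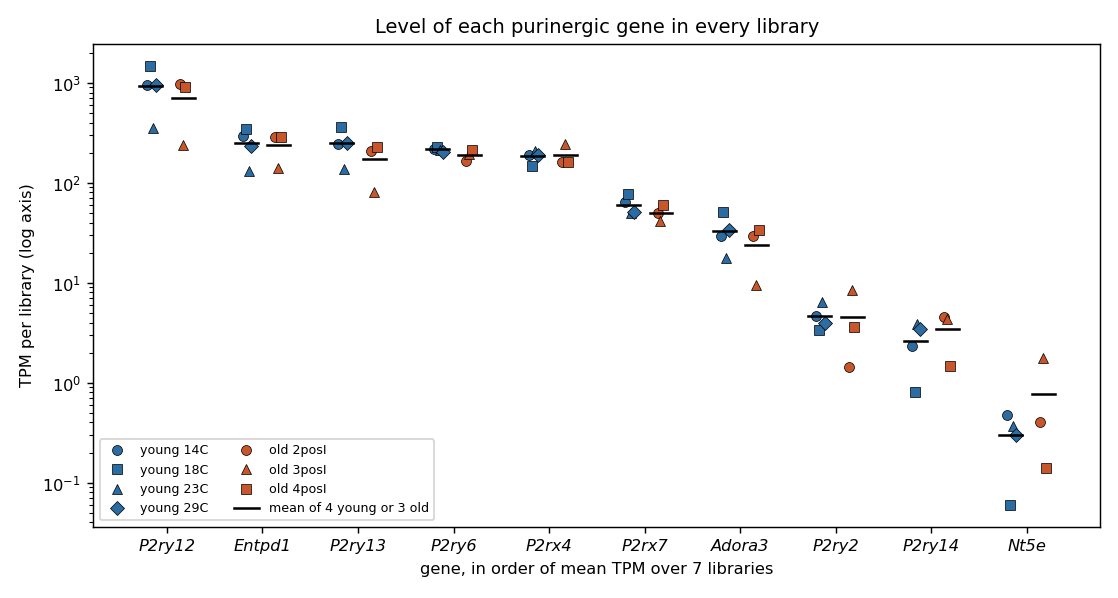
Level of each of the 10 genes in every library, in TPM on a log axis, ordered by the mean over 7 libraries; symbols mark libraries (blue young, orange old) and horizontal bars the means of 4 young or 3 old libraries. P2ry12 is highest with a mean of 836 TPM and Nt5e lowest with 0.499 TPM, and the 2 triangles, young 23C and old 3posI, lie below the other libraries for P2ry12, P2ry13, Entpd1 and Adora3.

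The 10 genes covered more than 3 orders of magnitude in TPM. P2ry12 was the highest, with 836 ± 418 TPM (SD, n = 7), which placed it at rank 122 among the genes tested. It was followed by Entpd1 (245 ± 82.6 TPM), P2ry13 (216.5 ± 89.97 TPM), P2ry6 (205 ± 21.5 TPM) and P2rx4 (186 ± 32.7 TPM), whose ranges overlapped one another. P2rx7 (55.9 ± 11.8 TPM) and Adora3 (29.2 ± 13.2 TPM) came next, and P2ry2 (4.59 ± 2.30 TPM), P2ry14 (2.97 ± 1.45 TPM) and Nt5e (0.499 ± 0.571 TPM) closed the order. Between neighbours in this order the library ranges were separate only at P2rx4 and P2rx7 and at Adora3 and P2ry2. Without old 3posI the order was unchanged and the ranges of P2ry12 (lowest 356 TPM) and Entpd1 (highest 349 TPM) no longer met. Without young 18C the order was P2ry12, Entpd1, P2ry6, P2rx4, P2ry13 and then as before. P2ry12 exceeded Entpd1 in 7 of 7 libraries, while Entpd1 exceeded P2ry13 in 4 of 7.

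P2ry12 and P2ry13 encode the G protein-coupled ADP receptors of microglia. In GRCm38 both lie on the minus strand of chromosome 3, P2ry13 at 59207892 to 59210882 and P2ry12 at 59216272 to 59262871, with 5389 bases between them. P2ry14 lies 54273 bases beyond P2ry13, and all 3 sit inside the span of Med12l, which is transcribed from the other strand. In CPM (counts relative to library size, scaled by TMM factors), P2ry12 was at 1147, 1767, 440.5 and 1236 in young 14C, 18C, 23C and 29C and at 1373, 341 and 1123 in old 2posI, 3posI and 4posI. One young and 1 old library were thus low, the ages overlapped, and the highest and lowest libraries were 5.18-fold apart. The log2 fold change was -0.28 (SE 0.53, 95% interval -1.49 to 0.93, edgeR adjusted p = 0.811), and it was 0.12 without old 3posI and 0.015 without young 18C.

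P2ry13 read 434, 629, 244 and 469 CPM in the young libraries and 425, 157 and 398 CPM in the old ones. The order of libraries was close to that of P2ry12, with 18C highest and 23C and 3posI lowest, and the ages overlapped. Its log2 fold change was -0.44 (SE 0.39, 95% interval -1.33 to 0.45, edgeR adjusted p = 0.572), or -0.11 without 3posI. The ratio of P2ry12 to P2ry13 in TPM lay between 2.56 and 4.68 in the 7 libraries, a narrower span than that of either gene.

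The sequences before the start sites are shown for the genes whose library order was like that of P2ry12 and which have 1 annotated start, P2ry13 and Adora3, and for the neighbouring P2rx7 and P2rx4, whose orders were opposite. Each is the 250 bases before the RefSeq start (GRCm38.p6), written 5′ to 3′ on the strand of the gene, with motif matches on either strand in capitals. The first of the 2 annotated P2rx7 starts is shown.

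P2ry12, chr3:59262986-59263235, minus strand: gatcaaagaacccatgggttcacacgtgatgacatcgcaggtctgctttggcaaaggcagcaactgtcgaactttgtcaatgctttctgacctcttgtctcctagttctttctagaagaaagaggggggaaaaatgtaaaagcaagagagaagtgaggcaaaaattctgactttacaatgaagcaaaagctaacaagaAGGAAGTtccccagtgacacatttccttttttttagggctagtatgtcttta
P2ry13, chr3:59210883-59211132, minus strand: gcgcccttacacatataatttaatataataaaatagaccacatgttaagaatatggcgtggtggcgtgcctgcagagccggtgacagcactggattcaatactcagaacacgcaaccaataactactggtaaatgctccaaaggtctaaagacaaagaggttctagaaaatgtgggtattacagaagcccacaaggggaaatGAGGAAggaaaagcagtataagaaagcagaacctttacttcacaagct
Adora3, chr3:105904171-105904420, plus strand: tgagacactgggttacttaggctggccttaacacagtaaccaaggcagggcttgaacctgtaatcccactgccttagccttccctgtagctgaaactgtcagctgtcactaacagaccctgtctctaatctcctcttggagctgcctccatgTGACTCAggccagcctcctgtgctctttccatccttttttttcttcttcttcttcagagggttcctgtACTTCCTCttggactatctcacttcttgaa
P2rx7, chr5:122643677-122643926, plus strand: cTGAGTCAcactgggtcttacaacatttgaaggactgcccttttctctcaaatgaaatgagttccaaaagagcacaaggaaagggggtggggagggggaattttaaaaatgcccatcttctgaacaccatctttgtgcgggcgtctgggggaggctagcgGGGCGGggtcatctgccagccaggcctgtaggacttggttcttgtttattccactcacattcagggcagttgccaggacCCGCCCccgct
P2rx4, chr5:122707294-122707543, plus strand: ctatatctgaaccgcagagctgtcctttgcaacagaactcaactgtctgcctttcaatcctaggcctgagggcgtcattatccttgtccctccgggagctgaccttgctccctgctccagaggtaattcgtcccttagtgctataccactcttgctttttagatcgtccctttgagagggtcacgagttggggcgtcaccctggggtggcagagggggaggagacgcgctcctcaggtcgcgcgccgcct

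The letters searched were GAGGAA, the core of sites for PU.1 and related ETS factors, AGGAAGT, a longer ETS core that can overlap it by 5 letters, a core of the interferon-stimulated response element, TGANTCA, the AP-1 element, TATAAA and GGGCGG, the GC box. AGGAAGT was found once each in the windows of P2ry12 and Adora3, and 7.69% of 32851 RefSeq windows of the same length hold it. GAGGAA was found once each in P2ry13 and Adora3, where it overlaps AGGAAGT, and in 23.3% of all windows. TGANTCA was found once each in Adora3 and P2rx7 (6.75% of all windows) and GGGCGG at 2 places in P2rx7 (32.7%). The interferon element core, held by 2.98% of all windows, and TATAAA, held by 12.4%, were in none of the 5 windows, and no searched motif was in that of P2rx4. The windows of P2ry12 and P2ry13 hold 3 and 5 CpG dinucleotides, that of Adora3 holds 0, that of P2rx7 holds 6 and that of P2rx4 holds 13, with a median of 6 over all windows. The 2 windows of Entpd1, whose order was like that of P2ry12, hold 18 and 8 CpG, and the 4 windows of P2ry14, whose order was not, hold 1 to 4 CpG and GAGGAA in each. These matches describe letters only, and binding was not measured. RefSeq windows were found for 9 of the 10 genes, and P2ry6 was the exception.

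Adora3, the A3 adenosine receptor gene (chromosome 3, 105870858 to 105908926, plus strand), was at 45.0, 73.6, 26.4 and 51.3 CPM in the young libraries and at 45.1, 15.4 and 45.7 CPM in the old. As for P2ry12, 18C was highest and 3posI and 23C were lowest. Old mice differed from young by a log2 fold change of -0.47 (SE 0.42, 95% interval -1.43 to 0.49, edgeR adjusted p = 0.579), or -0.11 without 3posI. Adora3 shares 779 of its exon bases (20.9%) with Tmigd3 on the same strand, and its expected count was whole in only 1 of 7 libraries, so reads were divided between genes. Tmigd3 itself was at 0.94 to 5.44 TPM, and summing the 2 genes left Adora3 short of the threshold. In this respect, the level of Adora3 is less certain than that of the other genes. With the 2 genes summed, the log2 fold change was -0.44.

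Entpd1 (chromosome 19, 40612366 to 40741602, plus strand), the gene of CD39, was at 396, 463, 165 and 346 CPM in young 14C, 18C, 23C and 29C and at 455.5, 212 and 390 CPM in the old libraries. Here 23C was the lowest and 3posI the next, and the remaining libraries of both ages lay between 346 and 463 CPM. Its log2 fold change was 0.041 (SE 0.36, 95% interval -0.79 to 0.87, edgeR adjusted p = 0.964), so a change of 0.58-fold to 1.82-fold lies inside the interval. It was 0.30 without 3posI and -0.19 without 23C.

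Nt5e (chromosome 9, 88327197 to 88372092, plus strand), the gene of CD73, was near the detection limit. It was at 1.23, 0.157, 1.04 and 0.882 CPM in the young and at 0.805, 5.34 and 0.346 CPM in the old libraries, so 3posI alone lay above the young range. The log2 fold change of 1.38 (SE 0.92, 95% interval -0.72 to 3.48, edgeR adjusted p = 0.449) rested on that library and was -0.54 without it. Entpd1 exceeded Nt5e in TPM by 80-fold in 3posI and by 352-fold to 5820-fold in the other 6 libraries.

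P2rx4 and P2rx7 are neighbours on the plus strand of chromosome 5, P2rx7 at 122643911 to 122691432 and P2rx4 at 122707544 to 122729738, with 16111 bases between them. P2rx7 was at 123, 139, 90.8 and 109 CPM in the young libraries and at 109, 83.7 and 115 CPM in the old, again with 18C highest and 23C and 3posI lowest. P2rx4 was at 209, 165, 227 and 216 CPM in the young and at 213, 296.5 and 175 CPM in the old libraries. For P2rx4 the same libraries stood at the opposite ends, with 3posI and 23C highest and 18C lowest. The ratio of P2rx4 to P2rx7 in TPM was accordingly 5.82 in 3posI and 4.26 in 23C, compared with 1.94 in 18C and 2.69 to 3.73 in the other 4 libraries.

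Neither channel gene differed between the ages. The log2 fold change of P2rx7 was -0.17 (SE 0.18, 95% interval -0.57 to 0.23, edgeR adjusted p = 0.644), or -0.038 without 3posI. That of P2rx4 was 0.16 (SE 0.20, 95% interval -0.29 to 0.61, edgeR adjusted p = 0.697), or -0.073 without 3posI. Expected counts of P2rx7 were whole in 5 libraries and those of P2rx4 in 6, and P2rx7 shares 119 exon bases with the microRNA gene Mir8115, which held at most 8.54 expected counts.

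**Figure D2:**
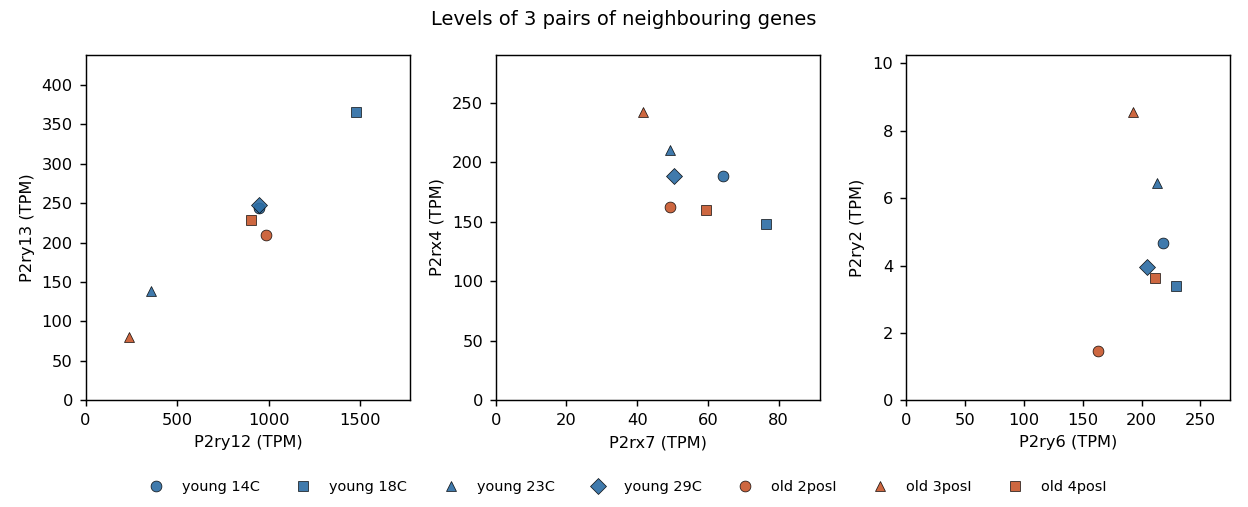
TPM of 3 pairs of neighbouring genes, 1 symbol per library (blue young, orange old), with linear axes from 0. P2ry12 and P2ry13 run together from 3posI and 23C to 18C, P2rx4 is highest where P2rx7 is lowest, and P2ry6 stays between 163 and 229.5 TPM while P2ry2 runs from 1.45 to 8.55 TPM.

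P2ry6, the UDP receptor gene (chromosome 7, 100937630 to 100974649, minus strand), was the steadiest of the 10 genes. It was at 277, 279, 273 and 278 CPM in the young libraries, a coefficient of variation of 0.919%, and at 245, 276 and 261 CPM in the old ones. Unlike P2ry12, it was not low in 23C or 3posI. Old 2posI and 4posI lay below all young libraries, and 3posI lay within the young range. The log2 fold change was -0.088 (SE 0.11, 95% interval -0.34 to 0.16, edgeR adjusted p = 0.705), and a two-sided exact permutation test of mean log2 CPM over 35 splits gave p = 0.0571, where 0.0286 is the smallest value possible. This was the lowest p of the 10 genes in that exact test, in which the others gave 0.371 to 0.886. Without 3posI the log2 fold change was -0.13 and the ages no longer overlapped, but the edgeR test was still not passed (adjusted p = 0.613). In TPM the spread of P2ry6 was wider, from 163 in 2posI to 229.5 in 18C.

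P2ry2, an ATP and UTP receptor gene, lies 21918 bases from P2ry6 (chromosome 7, 100996568 to 101012866, minus strand) and was expressed at a far lower level. It was at 8.03, 4.68, 11 and 6.04 CPM in the young and at 2.77, 17.2 and 5.74 CPM in the old libraries. The old libraries thus held both the lowest and the highest value, and 3posI and 23C were the 2 highest. The edgeR log2 fold change was 0.21 (SE 0.56, 95% interval -1.06 to 1.47, adjusted p = 0.871), whereas the mean log2 CPM was 0.12 lower in the old, so the direction depended on the method, and it was -0.80 without 3posI.

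P2ry14, the UDP-glucose receptor gene (chromosome 3, 59113855 to 59153618, minus strand), was at 2.82, 0.984, 4.69 and 3.55 CPM in the young libraries and at 6.38, 5.11 and 1.88 CPM in the old. Old 2posI was highest and young 18C lowest, and old 4posI lay below 3 of the 4 young libraries. The log2 fold change was 0.56 (SE 0.54, 95% interval -0.68 to 1.80, edgeR adjusted p = 0.610), or 0.45 without 3posI. Although P2ry14 shares its locus with P2ry12 and P2ry13, its library order was not theirs.

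**Figure D3:**
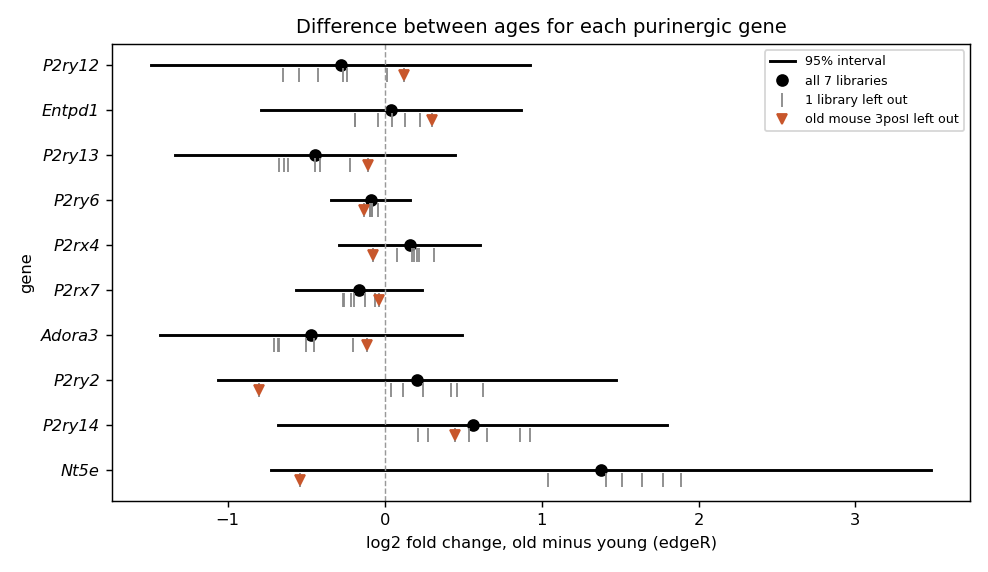
Log2 fold change, old minus young, of each gene from edgeR (black point) with its 95% interval (line); grey ticks show the value with 1 library left out and orange triangles the value without old 3posI. All 10 intervals include 0, the interval of P2ry6 is the narrowest (-0.34 to 0.16) and that of Nt5e the widest (-0.72 to 3.48).

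The precision differed accordingly between genes. The 95% intervals of P2ry6, P2rx4 and P2rx7 left room for old-to-young ratios of 0.79 to 1.12, 0.819 to 1.52 and 0.674 to 1.18. Those of P2ry12, P2ry13 and Adora3 ran from 0.357 to 1.90, 0.397 to 1.37 and 0.37 to 1.41. Those of P2ry2, P2ry14 and Nt5e ran from 0.48 to 2.77, 0.626 to 3.48 and 0.606 to 11.2, so an increase of 2-fold lies inside the intervals of these 3 genes.

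Across the 7 libraries, P2ry13, Adora3, Entpd1 and P2rx7 followed the library order of P2ry12, P2ry2, P2rx4 and Nt5e ran mostly against it, and P2ry6 was nearly flat. Over log2 CPM, Pearson's r with P2ry12 was 0.98 for P2ry13, 0.97 for Adora3, 0.94 for Entpd1 and 0.93 for P2rx7 (n = 7). It was -0.87 for P2ry2, -0.83 for P2rx4, -0.79 for Nt5e, -0.56 for P2ry14 and -0.23 for P2ry6. Spearman's rho was 0.89, 0.82, 0.86 and 0.71 for the first 4 genes and -0.86, -0.68, -0.71, -0.32 and 0.32 for the other 5. These values share library, depth and scaling, and are given as a description.

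Much of this rested on 23C and 3posI. Without these 2 libraries, the farthest from the median for P2ry12 (n = 5), r was 0.90 for P2ry13, 0.88 for Adora3, 0.71 for Entpd1 and 0.66 for P2rx7. It was then -0.49 for P2ry2, -0.47 for P2rx4, -0.67 for Nt5e, -0.44 for P2ry14 and 0.13 for P2ry6. Young 18C was the library with the highest P2ry12, P2ry13, Adora3, Entpd1 and P2rx7 and the lowest P2rx4, P2ry14 and Nt5e. Like P2ry12, the summed microglia markers were highest in 18C (13750 TPM) and lowest in 23C (8898 TPM) and 3posI (4835 TPM). In old 2posI the sum of 9584 TPM lay below those of 14C, 29C and 4posI, although its P2ry12, at 1373 CPM, was below 18C only. Fcrls, the most abundant of these markers, was higher in 23C (3134 TPM) than in 18C (2838 TPM). In 23C, summed markers of endothelial cells (94.9 TPM), astrocytes (82.4 TPM) and mural cells (22.2 TPM) lay above the other young libraries (42.7 to 65.1, 53.3 to 61.3 and 5.43 to 11.9 TPM). Monocyte markers did not, since 23C, at 102 summed TPM, lay inside the range of the other young libraries (80.0 to 211). Within the astrocyte sum of 23C, Gfap was at 33.2 TPM, while Slc1a3, at 20.4 TPM, lay below the other young libraries (33.0 to 42.4 TPM). Old 2posI, where P2ry12 was not low, held 86.75 TPM of astrocyte, 18.35 TPM of mural and 37.7 TPM of endothelial markers. The part of any of these markers in the order was not tested.

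**Figure D4:**
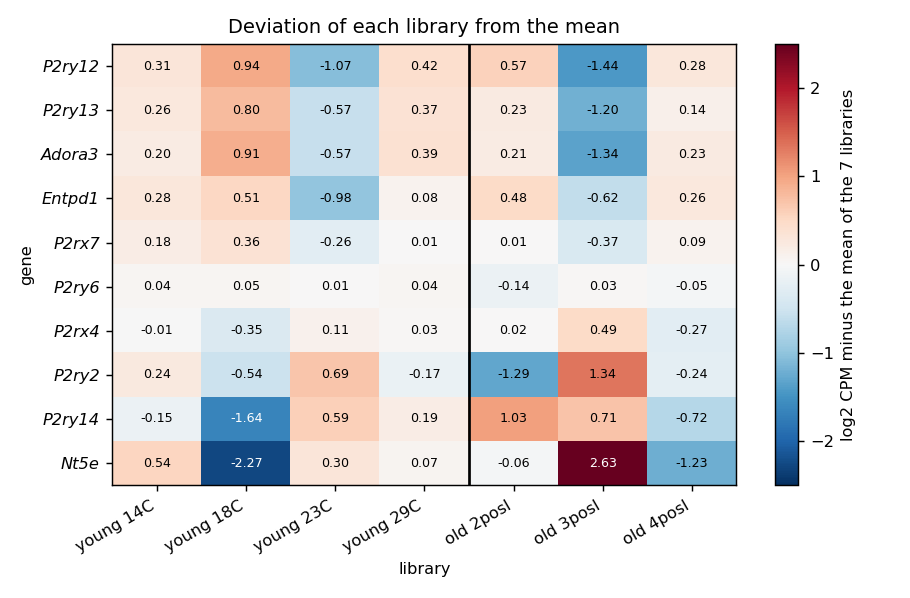
Deviation of each library from the mean of the 7 libraries in log2 CPM, for each gene (rows) and library (columns, the line divides young from old); red is above and blue below the mean. P2ry12 deviates by -1.07 in young 23C and -1.44 in old 3posI, where P2rx4 deviates by 0.11 and 0.49, and P2ry6 stays between -0.14 and 0.05 throughout.

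As a result the make-up of the receptor set changed from library to library. P2ry12 made up 24.9% of the summed TPM of the 10 genes in 3posI and 31.6% in 23C, against 47.5% to 54.7% in the other 5 libraries. The ratio of P2ry12 to P2rx4 in TPM was 0.986 in 3posI and 1.69 in 23C, compared with 5.03 to 9.97 elsewhere. Against P2ry6 the ratio was 1.24 in 3posI and 1.67 in 23C, compared with 4.28 to 6.43 elsewhere. In each case 1 young and 1 old library were low, and the other libraries of both ages overlapped.

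Among 8139 other genes with a mean of at least 10 CPM, the 5 whose log2 CPM was most like that of P2ry12 over the 7 libraries were Trp53bp1 (r = 0.995), Tmem100 (0.993), Lag3 (0.992), Tmem119 (0.992) and Atp8a2 (0.992). Without 23C and 3posI their r was 0.977, 0.882, 0.861, 0.876 and 0.864. Tmem119, a microglia marker, was at 2269 CPM in 18C, 1027 in 23C and 850 in 3posI, and Lag3, which encodes an immune checkpoint receptor, at 666, 204 and 154 CPM. The level of Trp53bp1, a DNA damage response gene, spanned less, at 31.7, 20.5 and 18.9 CPM. None of the 5 differed between the ages (edgeR adjusted p of 0.729 to 0.859). In all, 22 genes had a higher r with P2ry12 than its neighbour P2ry13 had, and 3.55% had an r of at least 0.9.

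Med12l, whose span holds P2ry12, P2ry13 and P2ry14 and whose exons share 9 bases with those of P2ry12, was at 1.22 to 5.79 TPM and had a log2 fold change of -0.28 (edgeR adjusted p = 0.743). The libraries were not stranded, so reads from the opposite strands cannot be told apart where genes overlap. Apart from Med12l, Tmigd3 and Mir8115, the overlapping genes share no exon bases with the set. Gm44545, which overlaps P2ry6, was at 1.77 to 9.52 TPM (log2 fold change -0.76, edgeR adjusted p = 0.487), and Gm16027 and Gm8783, which overlap Entpd1, stayed at or below 6.91 TPM (edgeR adjusted p of 0.695 and 0.850).

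Of 56 further genes in 5 lists, 48 were tested and none passed the threshold in edgeR in either direction. The lists hold receptors, enzymes, genes of release and transport, and general effectors placed downstream of P2Y12 and P2X7. The ages were separated without overlap for 7 of the 48 genes (14.6%, against 17.7% of all genes tested), 1 higher and 6 lower in the old.

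Among the other P2 and adenosine receptors, 7 of 12 were tested, with a median log2 fold change of 0.38, which was -0.20 without 3posI and -0.25 without a filter on low counts. P2rx1, an ATP-gated channel, was at 4.08, 7.25, 4.78 and 5.11 TPM in the young and 3.98, 1.87 and 5.07 TPM in the old libraries (log2 fold change -0.63, edgeR adjusted p = 0.334, or -0.32 without 3posI). Adora2b, an adenosine receptor, was at 0.68 to 1.82 TPM in the young libraries and at 0.83 and 1.15 TPM in old 2posI and 4posI, but at 9.52 TPM in 3posI. Its log2 fold change of 1.80 (edgeR adjusted p = 0.269) was -0.20 without that library.

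Among the other enzymes of nucleotides and adenosine, 15 of 16 were tested, with a median of -0.10, which was -0.25 without 3posI but turned to 0.09 without 23C and 0.13 without 4posI. Pnp, purine nucleoside phosphorylase, was at 132, 136, 139 and 135 TPM in the young libraries and at 158, 193 and 157.5 TPM in the old. All old libraries thus lay above all young ones, yet the log2 fold change of 0.44 (SE 0.13) did not pass in edgeR (adjusted p = 0.138), while it did in DESeq2 (adjusted p = 0.0361). Its reads were divided between genes in all 7 libraries. Cd38, an NAD glycohydrolase, was at 3.00 to 31.8 TPM in the young libraries and at 116 TPM in 3posI, and its log2 fold change of 1.72 (edgeR adjusted p = 0.422) was -0.11 without 3posI. The relatives of CD39 encoded by Entpd4, Entpd5 and Entpd6 were lower in every old than in every young library, at log2 fold changes of -0.31, -0.40 and -0.40 (edgeR adjusted p of 0.322, 0.167 and 0.197). These 3 were singled out after their values were seen, and the counts of Entpd4 and Entpd6 were fractional in all libraries.

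Of the genes of nucleotide release and nucleoside transport, 10 of 12 were tested (median -0.12, or -0.17 without 3posI). The nucleoside transporters Slc29a1 and Slc29a3 were the highest, at 114 ± 7.20 and 97.8 ± 23.9 TPM in the young (SD, n = 4) and 94.0 ± 31.6 and 80.5 ± 11.2 TPM in the old (SD, n = 3), with log2 fold changes of -0.21 and 0.10 (edgeR adjusted p of 0.588 and 0.824). Without 3posI these were 0.0078 and 0.20. Slc29a3 was lower in the old by TPM and higher by CPM, so its direction depended on the length correction. Lrrc8a, a volume-regulated anion channel subunit, was lower in every old library (24.2 ± 7.34 against 40.3 ± 4.66 TPM, log2 fold change -0.65, edgeR adjusted p = 0.172, or -0.43 without 3posI), and was named after its values were seen. Expected counts were whole in 0 of 7 libraries for Lrrc8a and Slc29a3 and in 1 for Slc29a1, so reads were divided between genes.

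Among 8 genes acting downstream of P2Y12 (median -0.05, or -0.01 without 3posI and 0.03 without 2posI), Gnai2, a subunit of the inhibitory G protein, was at 199 ± 29.9 TPM in the young and 229 ± 38.6 TPM in the old (log2 fold change 0.35, edgeR adjusted p = 0.337). Itgb1, the beta-1 integrin, was at 125 ± 13.8 and 108 ± 4.41 TPM (log2 fold change -0.12, edgeR adjusted p = 0.657, or -0.047 without 23C). Kcnk13, which encodes the potassium channel THIK-1, was at 49.3, 44.8, 52.6 and 39.9 TPM in the young and at 23.5, 36.7 and 35.9 TPM in the old libraries. The ages did not overlap, and the log2 fold change of -0.46 (SE 0.16) did not pass (edgeR adjusted p = 0.177). Kcnk13 was named after its values were seen.

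Among 8 genes acting downstream of P2X7, the median was 0.14 (0.17 without 3posI), but it was -0.05 with length offsets and -0.15 on either TPM scale, so its direction depended on the length correction. Pycard, the inflammasome adaptor, was at 549 ± 61.3 TPM in the young and 621 ± 81.7 TPM in the old (log2 fold change 0.22, edgeR adjusted p = 0.529, or 0.052 without 2posI). Its expected counts were fractional in all libraries. Il1b was at 304, 401, 268 and 259 TPM in the young and 98.9, 311 and 195 TPM in the old libraries (log2 fold change -0.51, edgeR adjusted p = 0.439), and the value was -1.02 without 3posI and -0.20 without 2posI. Nlrp3, the inflammasome sensor, came nearest to the threshold of all 48 genes and was named for that reason. It was at 121, 129, 118 and 104 TPM in the young and at 30.4, 50.7 and 74.8 TPM in the old libraries, without overlap. Its log2 fold change was -0.95 (SE 0.20, edgeR adjusted p = 0.0660), it lay between -1.27 and -0.75 in every alternative fit, and the adjusted p ranged from 0.000578 to 0.188.

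**Figure D5:**
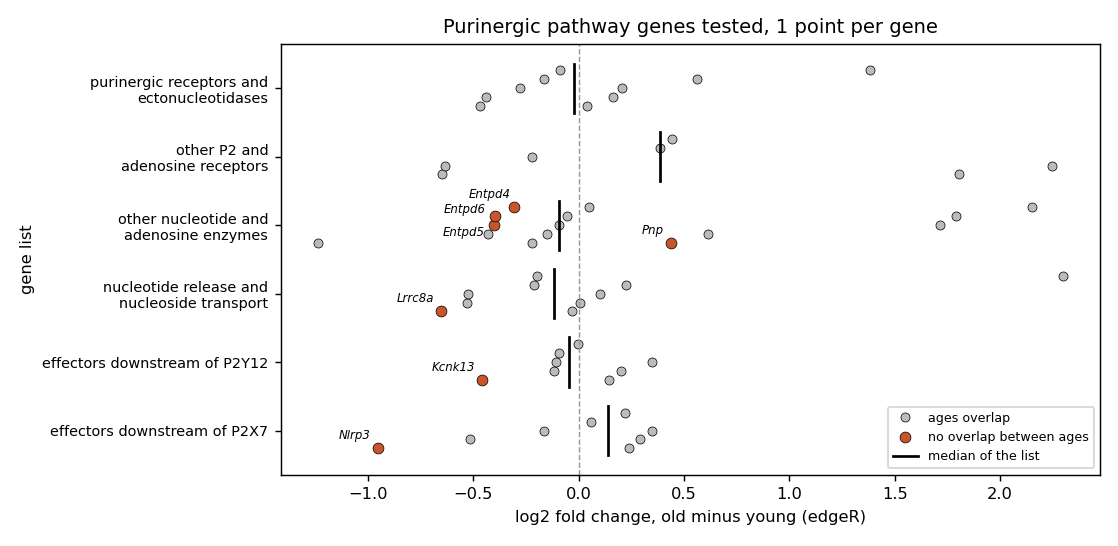
Log2 fold change, old minus young, from edgeR for the 10 genes and the 48 tested genes of 5 pathway lists, 1 point per gene, with the list median as a vertical line. Orange points are the 7 genes whose old and young libraries did not overlap, and Nlrp3 at -0.95 is the lowest of them.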

How the data were processed

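RNA from sorted microglia was made into low-input, non-stranded cDNA libraries by a Smart-seq2 protocol, without molecular identifiers. The authors checked reads with FastQC 0.11.5, aligned them to GRCm38 with STAR and deposited RSEM expected counts, TPM, FPKM and effective lengths per gene and library. The limma package is also in the submitters' processing notes, with no version. The deposited expected counts were rounded, the 18173 genes that exceeded 10 in any library were retained, and 614 on X, Y or the mitochondrial genome were removed. Age groups were compared in edgeR 4.0.16 (R 4.3.3, TMM factors, glmQLFit and glmQLFTest), with Benjamini-Hochberg adjustment over 17559 genes, and CPM values use the same factors (log2 CPM with a prior count of 1). The common biological coefficient of variation was 37.2%. The code was tested on simulated data. The deposited TPM were compared between genes, and the deposited FPKM only gave a second order of levels. Alternatives were other size factors, limma 3.58.1, DESeq2 1.42.0, other filters, length offsets, log2(TPM + 1) and log2(TPM + 0.1), and each library left out. Positions come from GENCODE vM21, which lists 50376 of the 50686 identifiers.

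Groups come from the labels. Of the microglia marker list, 1 gene is not reported here and is left out of the sums. The set of 10 symbols, the pathway and marker lists and the tests were drawn up with earlier results of these data known. Named pathway genes are the 2 tested genes of each list with the highest mean TPM and any past the threshold (there were none), and the genes most like P2ry12 are the 5 with the highest Pearson's r. Further genes are said in the text to be named after their values were seen. P-values weigh the difference between the ages against the spread between these mice. With 3 old and 4 young mice the exact test cannot go below p = 0.0286.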

Additional observations from a re-analysis of the deposited data

Results flagged for a closer look

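In the 4 young libraries, the gap of 1 library to the nearest other, divided by the whole range, was compared with Dixon's 95% critical value for 4 samples in 54 sets of values, and 2 passed it, where chance flags about 1 in 20. Neither concerns a purinergic gene. The summed TPM of the lymphocyte markers was 22.4 in 23C and 25.3 to 25.7 in the other 3 (gap 0.861 of the range). The summed TPM of the mast cell markers was 4.29 in 14C and 0.08 to 0.62 in the other 3 (gap 0.872 of the range).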

How the results depend on the processing

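The count of purinergic genes past the threshold was 0 in all 12 other fits and all 7 fits without 1 library. The count over all genes was 141 and moved to 318 with limma-voom sample weights, 1403 with DESeq2, 288 without a filter, 213 with length offsets, 64 and 71 on log2(TPM + 1) and log2(TPM + 0.1), and 1 to 159 with 1 library left out (1 without 14C, 18C or 2posI, 2 without 29C, 14 without 23C, 85 without 4posI, 159 without 3posI). The count of the 10 genes whose ages did not overlap moved from 0 to 1 with upper-quartile factors and without a filter (P2ry6 in both), and ranged from 0 to 2 with 1 library left out (P2ry6 and P2ry13 without 23C, P2ry6 without 3posI, P2ry14 without 4posI). The cause was not tested. Over all genes tested, 17.7% did not overlap with all 7 libraries, and this share was not taken under the other settings. These moves are therefore a description only. Direction turned in 14 of 190 alternative values of the 10 genes: P2ry2 to -0.10 and -0.42 in the 2 voom fits and -0.21 and -0.32 on the 2 TPM scales, Entpd1 to -0.061 on both TPM scales, and, with 1 library left out, in P2ry12 (-0.65 to 0.12, with 0.015 without 18C), P2ry2 (-0.80 to 0.62), P2rx4 (-0.073 to 0.32), Entpd1 (-0.19 to 0.30, with -0.043 without 4posI) and Nt5e (-0.54 to 1.89). Among named pathway genes, Slc29a3 turned to -0.18 with length offsets and to -0.25 and -0.26 on the TPM scales, and with 1 library left out so did Adora2b (-0.20 to 2.27), Cd38 (-0.11 to 2.25), Slc29a1 (-0.38 to 0.0078) and Slc29a3 (-0.049 to 0.22). Alternatives counted over the pathway genes and the level order without each library were added after seeing the data. They gave 1 pathway gene past the threshold with sample weights and without a filter (Nlrp3 in both), 3 with DESeq2 (Pnp, Slc28a2 and Nlrp3, of which Slc28a2 is named after its values were seen), and 0 to 1 with 1 library left out (Nlrp3 without 4posI). Between 7 and 10 of the 10 genes held their place in the level order. Samples are few and differ within an age, which sets the width of the intervals. No paired analysis was possible because the labels give no replicate numbers and the ages are different mice.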
